A study of Mus musculus with 18 samples.

Results

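Trp53 encodes p53, the transcription factor that halts division or kills cells after DNA damage. Among the missense-mutant mouse mammary tumors measured here, 3 tumors held far less Trp53 RNA than the other 9. The 3 tumors were chosen by that level: a tumor was low where Trp53 was below 20 CPM (the count of a gene scaled to a common library total, here the column total), and high otherwise. Of 18 tumors in the series, 12 carried a missense allele (7 MaP R172H/- and 5 MaP R245W/-), and the low class took 1 MaP R172H/- tumor (YZ11) and 2 MaP R245W/- tumors (JM1233 and RM0014). The question was which other genes differed between the low and the high tumors once genotype was allowed for. Trp53 itself, and whatever the choice by Trp53 fixed, was described and not tested.

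MaP mice are female hybrids of BALB/c and C57BL6/J that received adenovirus carrying Cre recombinase into the mammary ducts. Cre turned the conditional Trp53 allele into R172H or R245W in infected duct epithelium, with the other allele lost. In the 6 MaP -/- tumors both alleles were lost, and JM663-T1 and JM663-T2 came from the same mouse, as did JM833-T1 and JM833-T2. Stromal and immune cells of every tumor kept wild-type Trp53, so each bulk level mixed tumor cell RNA with host RNA. Several animals also carried the Rosa26 LSL-TdTomato reporter, per the study's table of tumors: YZ2, YZ6 and YZ10 among MaP R172H/- tumors, and JM1233, JM1564 and RM0014 among MaP R245W/- tumors. The study's histology called YZ11 a nonmetaplastic adenocarcinoma, and JM1233 and RM0014 metaplastic sarcomatoid carcinomas. The high tumor JM1133 was of that metaplastic class as well. MaP R172H/- libraries were read on a HiSeq and MaP R245W/- libraries on a NovaSeq instrument, so genotype and instrument cannot be told apart among these 12 tumors.

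As background, mutant p53 protein often builds up in tumor cells, and the amount of mutant p53 differs widely between tumors. Missense p53 has largely lost the ability to switch on its normal targets, such as the cell cycle inhibitor Cdkn1a and the p53 ubiquitin ligase Mdm2. In tumors with 1 mutant allele, the level of Trp53 RNA depends on transcription, on RNA stability and on how many copies of the allele remain, none of which a count table separates. Both mutations lie in the DNA-binding domain of the protein.

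The reference sequence around each mutated codon is shown because the missense allele is what defines each genotype. Trp53 (ENSMUSG00000059552.14) lies on the plus strand of chromosome 11 of GRCm39 from 69469669 to 69482701. In the canonical transcript Trp53-203, which encodes 390 residues, the codon of R172H lies in exon 5 at 69479337 to 69479339 and that of R245W in exon 7 at 69480036 to 69480038. The capitals mark the codon, which encodes arginine in both cases, and each line is reference sequence on the plus strand, 5′ to 3′.
R172H codon, chr11:69479325-69479351: gaggtcgtgagaCGCtgcccccaccat
R245W codon, chr11:69480024-69480050: gggggcatgaacCGCcgacctatcctt
The counts are per gene, so the mutant and the wild-type allele were not counted apart.

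Trp53 stood at 10.1 CPM in YZ11, 11.7 CPM in JM1233 and 8.48 CPM in RM0014, with 240, 382 and 317 counts behind those values. The 6 high MaP R172H/- tumors lay close together, from 43.4 CPM in YZ6 and YZ10 to 51.4 CPM in YZ4, with a median of 46.9 CPM. The 3 high MaP R245W/- tumors were spread out, with 23.4 CPM in JM1126, 26.1 CPM in JM1564 and 51.4 CPM in JM1133. The nearest tumors on either side of the limit were JM1233 below it and JM1126 above it. Mean levels were 10.1 ± 1.62 CPM in the low class (SD, n = 3) and 42.3 ± 10.4 CPM in the high class (SD, n = 9). The mean of the high tumors was 4.62 times that of the low tumor within MaP R172H/- and 3.33 times that of the low tumors within MaP R245W/-.

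**Figure D1:**
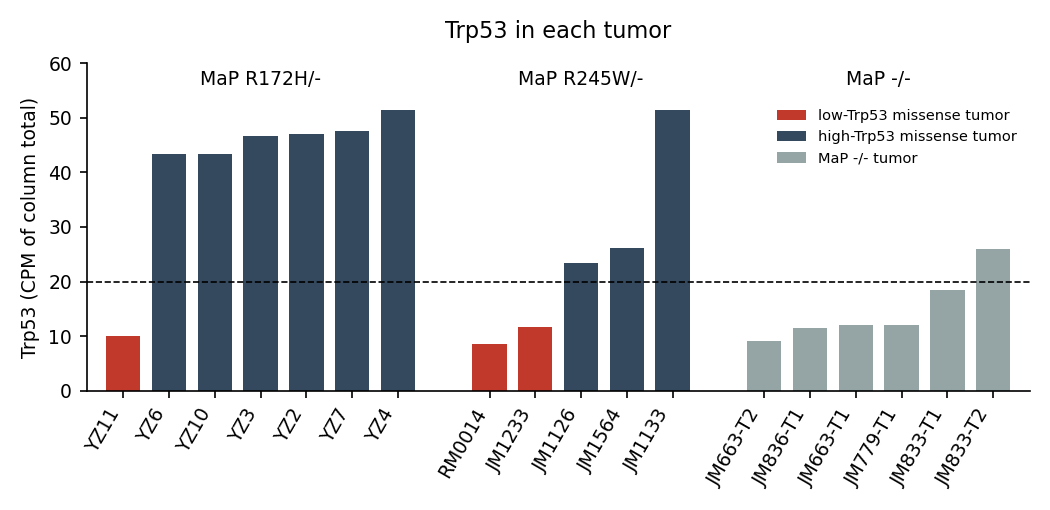
Bars give Trp53 in CPM of the column total for each tumor, grouped by genotype, and the dashed line marks the limit of 20 CPM. The 3 low missense tumors (red) stand between 8.48 and 11.7 CPM, and 5 of the 6 MaP -/- tumors (grey) also stand below the line.

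The MaP -/- tumors gave 9.2 CPM in JM663-T2, 11.5 CPM in JM836-T1, 12 CPM in JM663-T1, 12.1 CPM in JM779-T1, 18.4 CPM in JM833-T1 and 25.9 CPM in JM833-T2. The low missense tumors therefore sat at the lower end of the null tumors, and RM0014 was below all 6 of them. Scaling by TMM library sizes, which adjust the totals for a few very abundant genes, kept the same classes, with 9.06 to 11.3 CPM in the low tumors and 27.3 to 59.1 CPM in the high tumors. How much of the remaining Trp53 RNA came from host cells was not tested.

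The antisense gene Wrap53 overlaps the 5′ end of Trp53, and the antisense gene model Gm57392 lies within Trp53. Gm57392 had 53, 65 and 91 counts in YZ11, JM1233 and RM0014 against 45 to 95 counts in the high tumors. Wrap53, which encodes a telomerase and Cajal body protein, had 13.3 CPM in YZ11, 10.4 CPM in JM1233 and 16.0 CPM in RM0014. The high tumors held 14.5 to 19.6 CPM of Wrap53 in MaP R172H/- and 14.7 to 25.2 CPM in MaP R245W/-. The fitted difference was -0.50 on the log2 scale for Wrap53 and -1.96 for Trp53. The study prepared its libraries with a stranded kit. Whether the counts were made with regard to strand is not given in the sources used here, so reads of the overlapping stretches cannot be assigned to 1 gene with certainty.

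The comparison across all genes passed no gene. Of 23806 genes tested with genotype as a covariate, 0 were higher and 0 lower in low-Trp53 tumors where a call needed an FDR under 0.05 and a 2-fold difference (0.0% in each direction, edgeR's quasi-likelihood test), and the smallest FDR was 0.884. At an unadjusted p below 0.05, 447 genes were higher (1.88%) and 364 lower (1.53%), together 3.41% of genes tested. DESeq2, run as an alternative over 43790 genes with any count, called 15 genes higher and 15 lower. That is a wider set than the 23806 genes above, and several of its calls were carried by 1 or 2 of the low tumors. Groups that did not overlap were also rare: all 3 low tumors lay above all 9 high tumors for 40 genes (0.168%) and below them for 67 genes (0.281%). Over all genes the median difference was -0.03 on the log2 scale, and 53.1% of genes were below 0. Nothing named below passed the edgeR test, and the values are descriptions of these tumors.

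The genes next to Trp53 leaned low in the low-Trp53 tumors. Within 1 Mb of the start of Trp53, 98 genes were tested, leaving out those that overlap it, and 78 of them (79.6%) had a difference below 0, against 53.1% of all genes. Their median was -0.52 on the log2 scale, with the middle 50% of values between -0.77 and -0.15. At an unadjusted p below 0.05, 25 of the 98 were lower (25.5%, against 1.53% of all genes) and 2 were higher. The low tumors lay below every high tumor for 4 of the 98 (4.08%, against 0.281%): Sox15, Gabarap, Dvl2 and the gene model Gm57412. None of the 98 passed the FDR limit, and neighbours of Trp53 that move with it are not independent of a choice of tumors made by Trp53. The median was -0.54 within MaP R245W/- alone and -0.43 within MaP R172H/- alone, a fit in which the median of all genes was itself -0.12.

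**Figure D2:**
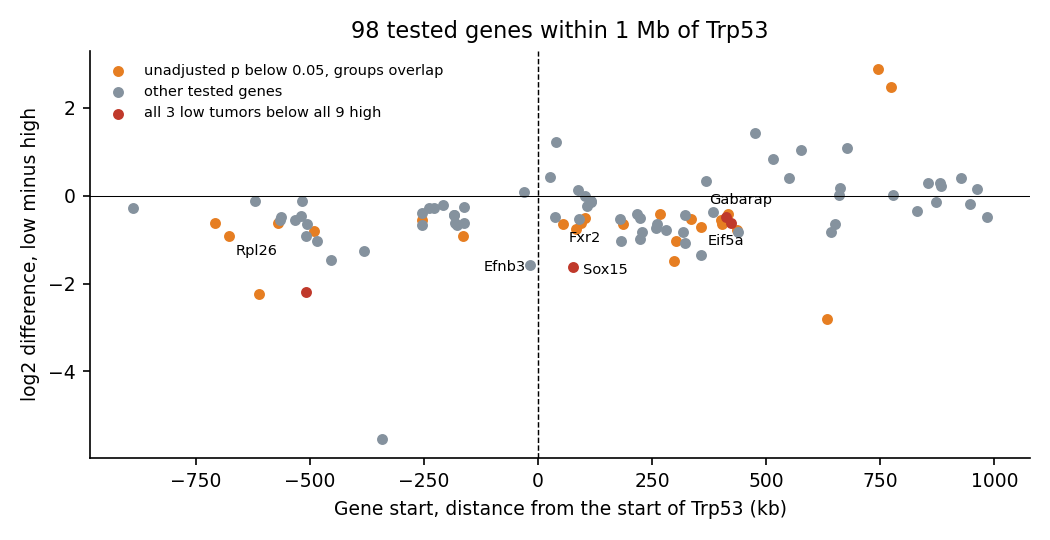
Each point is a tested gene within 1 Mb of Trp53, with the distance of its start in kb on the horizontal axis (dashed line, Trp53) and the log2 difference, low minus high, on the vertical axis. Most points lie below 0, and the 4 genes in red are those for which all 3 low tumors were below all 9 high tumors.

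Single neighbours varied around that median. The nearest was Efnb3, an ephrin ligand, with 1.03, 0.884 and 0.571 CPM in YZ11, JM1233 and RM0014 against 0.835 to 9.76 CPM in the high tumors. Its difference was -1.58 ± 0.73 (log2, SE; unadjusted p = 0.0519, edgeR). Atp1b2, a sodium pump subunit, and the axonemal motor gene Dnah2 were near or above 0, at 0.43 ± 0.81 and 0.08 ± 0.60, and both groups overlapped widely. Shbg, the sex hormone-binding globulin, stood at 1.23 ± 1.05 and Sat2 at -0.47 ± 0.55. These 4 genes are of low level, and each changed sign between the genotypes fitted alone.

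Better expressed neighbours were not more uniform in direction. Of 60 protein-coding neighbours with a mean above 5 CPM, 48 were below 0 (80.0%) and 12 above, against 79.6% below 0 of all 98. Their differences ran from -1.075 to 2.88, and the genes described next are from the lower side. Fxr2, an RNA-binding protein related to the fragile X protein, had 83.6, 56.3 and 87.2 CPM in YZ11, JM1233 and RM0014. The high tumors held 80.1 to 136 CPM of Fxr2 in MaP R172H/- and 108 to 141 CPM in MaP R245W/-, a difference of -0.64 ± 0.22 (unadjusted p = 0.0131, edgeR). YZ11 overlapped the lowest high tumor of its genotype, and JM1233 and RM0014 lay below all high tumors of theirs. Mpdu1, which serves protein glycosylation, differed by -0.75 ± 0.32 and the translation initiation helicase gene Eif4a1 by -0.61 ± 0.24. Eif5a, a translation factor, had 322, 275 and 389 CPM in the low tumors against 378 to 597 CPM and 475 to 656 CPM in the high tumors of the respective genotypes. Only RM0014 was within the range of any high tumor, and the difference was -0.70 ± 0.21 (unadjusted p = 0.00532, edgeR).

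The 3 named neighbours with no overlap were also of unlike levels. Sox15, a SOX transcription factor, had 0.374, 0.324 and 0.371 CPM in YZ11, JM1233 and RM0014 against 0.638 to 2.71 CPM in the high tumors. At that level a tumor holds few counts of Sox15, and the MaP -/- tumors ran from 0.0978 to 0.692 CPM, across the low tumors and into the high range. Gabarap, an autophagy adaptor, had 130, 133 and 139 CPM against 142 to 226 CPM, so the gap between the groups was narrow. Dvl2, a Wnt signal transducer, had 17.5, 17.4 and 15.9 CPM against 19.5 to 50 CPM. The exceptions that leaned high were Alox12e and Alox15, lipoxygenases of myeloid and epithelial cells, at 2.88 ± 1.14 and 2.48 ± 0.85 (unadjusted p = 0.0265 and 0.0134, edgeR). Both rested on YZ11, at 112 CPM of Alox12e and 74.9 CPM of Alox15, with JM1233 and RM0014 inside the high range.

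Seen tumor by tumor, the neighbourhood separated the classes by a small margin. For 60 protein-coding neighbours with a mean above 5 CPM, the log2 level in each tumor was set against the median of the high tumors of its genotype, and centred over 11750 such genes of the genome. The median of these deviations was -0.48 in YZ11, -0.54 in JM1233 and -0.41 in RM0014. Among the high tumors it ran from -0.33 in YZ6 to 0.23 in JM1133. In the low tumors 45, 45 and 51 of the 60 genes were below 0. YZ6 had 49 of 60 below 0 and the common Trp53 level of its group, 43.4 CPM, so neighbours below the reference were also seen beside high Trp53. In the MaP -/- tumors, set against the high MaP R245W/- tumors, the median ran from -0.24 to -0.02.

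The same deviations along the chromosome showed how far each tumor's lower stretch reached. In windows between 50 and 5 Mb on the centromeric side of Trp53, YZ11 stood between -0.58 and -0.41 and RM0014 between -0.49 and -0.35. In YZ11 the values turned to 0.18 in the window 1 to 2 Mb beyond Trp53 on the telomeric side and stayed above 0 from there on. In RM0014 they were still -0.53 and -0.54 up to 5 Mb beyond Trp53, and then 0.22 or higher beyond 10 Mb. YZ11 and RM0014 thus shared a long lower stretch with different distal ends.

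JM1233 followed another course. Its windows were at 0.24 between 50 and 40 Mb before Trp53, at -0.45 and -0.32 between 40 and 20 Mb before Trp53, and at 0.12, 0.15 and 0.37 between 20 and 1 Mb before it. They were at -0.68 and -0.43 in the 1 Mb windows on either side of Trp53, at -0.35 and -0.40 up to 5 Mb beyond it, at 0.19 between 5 and 10 Mb beyond it, and at -0.39 and -0.30 between 10 and 40 Mb beyond it. The high tumors ranged from -0.27 to 0.30 in the windows between 50 and 5 Mb before Trp53. Several windows near Trp53 held fewer than 20 genes, and in the 15 genes between 5 and 1 Mb before it the high tumor YZ7 was at -0.68.

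**Figure D3:**
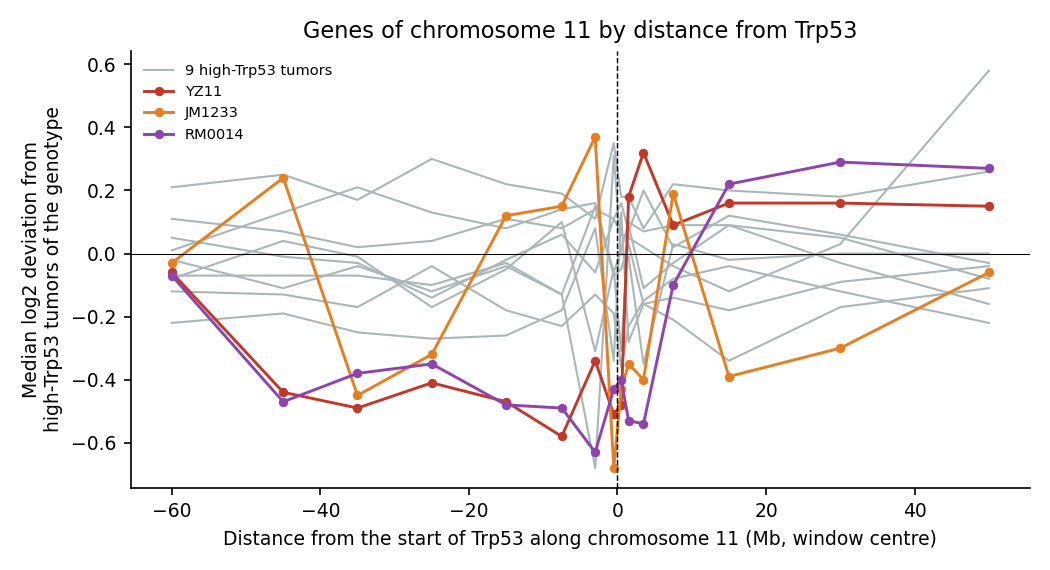
Lines join, for each tumor, the median log2 deviation from the high-Trp53 tumors of its genotype in windows of distance from the start of Trp53 (Mb, negative on the centromeric side). YZ11 and RM0014 stay below -0.3 from 50 Mb before Trp53 to Trp53 itself, JM1233 is low only in parts of that stretch and around Trp53, and the 9 high tumors (grey) mostly lie between -0.3 and 0.3.

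Bins along the genome were read the same way. Of 251 bins of 10 Mb with at least 10 genes, all 3 low tumors were below all 9 high tumors in 3 (1.2%) and above them in 0. The 3 bins lay on chromosome 11 at 30 to 40, 40 to 50 and 60 to 70 Mb, the last being the bin of Trp53, with medians of -0.52, -0.42 and -0.44. The gap was small: in the first bin the low tumors ended at -0.29 and the high tumors began at -0.25. In all, 9 bins had a median at or below that of the bin of Trp53, and in those outside chromosome 11 the groups overlapped. Between 20 and 70 Mb of chromosome 11, a stretch chosen after these values were seen, 461 of 564 tested genes were below 0, with a median of -0.39. That stretch holds 2.37% of tested genes, and 20 of the 67 genes with no overlap in the lower direction. The stretch was lower in YZ11 and RM0014 (-0.47 and -0.46) while JM1233, at -0.10, was inside the range of the high tumors, which ran from -0.20 to 0.23.

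Genes of that stretch, picked after their values were seen, included ribosome and ubiquitin genes. Rack1, a scaffold of the small ribosomal subunit, had 541, 657 and 774 CPM in YZ11, JM1233 and RM0014 against 823 to 1158 CPM in high MaP R172H/- and 1148 to 1975 CPM in high MaP R245W/- tumors. Its difference was -0.96 ± 0.23. Cdkn2aipnl had 46.7, 35.9 and 39.8 CPM against 57.7 to 87.6 CPM, a difference of -0.81 ± 0.17 (unadjusted p = 0.000627, edgeR). Aff4, a component of the super elongation complex, had 323, 249 and 400 CPM against 422 to 648 CPM. The ubiquitin-conjugating enzyme gene Ube2b differed by -0.68 ± 0.17, with RM0014 at 68.7 CPM inside the high range. For Rack1, Cdkn2aipnl and Aff4 the classes did not overlap.

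Genes higher in all 3 low tumors than in all 9 high tumors, with a difference of at least 1 on the log2 scale, were 7 by the naming rule. Galc, the lysosomal galactosylceramidase, had 43.3, 39.1 and 24.6 CPM in YZ11, JM1233 and RM0014 against 11.6 to 20.2 CPM in the high tumors. The difference was 1.21 ± 0.22 (log2, SE; unadjusted p = 0.000155, FDR = 0.884, edgeR). MaP -/- tumors held 21.8 to 29.1 CPM of Galc, above every high missense tumor. Mmp28, the metalloproteinase epilysin, which lies on chromosome 11 beyond the lower stretch, had 6.07, 6.39 and 5.74 CPM against 1.44 to 4.22 CPM. Tnfsf18, the ligand of the costimulatory receptor GITR, had 2.38, 0.825 and 0.886 CPM against 0.159 to 0.618 CPM. The Ral exchange factor gene Ralgps2 had 85.9, 38.8 and 48.5 CPM against 0.995 to 37.8 CPM, so that JM1233 exceeded the highest high tumor by little.

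The other higher genes were of very low level. Ncr1, the NK cell receptor NKp46, had 0.467, 4.06 and 0.314 CPM against 0.0 to 0.292 CPM. Lrrc2, a leucine-rich repeat gene, had 0.421, 8.42 and 0.543 CPM against 0.0 to 0.306 CPM. For both genes JM1233 carried most of the difference. The small nucleolar RNA Snord123 had 1.21, 1.09 and 1.77 CPM against 0.0 to 0.861 CPM.

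On the lower side 17 genes met the same limits, leaving out unnamed gene models, and the 10 of smallest p were named. Sema6a, a transmembrane semaphorin, had 12.3, 17.8 and 18.5 CPM in YZ11, JM1233 and RM0014 against 32.1 to 107 CPM, a difference of -1.75 ± 0.39 (unadjusted p = 0.00071, edgeR). The MaP -/- tumors ranged from 13.2 to 70 CPM of Sema6a. Rnf223, a RING finger gene, had 0.421, 0.442 and 0.571 CPM against 0.972 to 7.14 CPM. Rnf122, another RING finger gene, had 17.1, 8.9 and 13.5 CPM against 19.6 to 37.6 CPM. The potassium channel gene Kcnh8 stayed at 0.0295 to 0.0857 CPM in the low tumors against 0.344 to 4.75 CPM. Cacna1b, a neuronal calcium channel gene, had 0.374, 0.324 and 0.486 CPM against 0.529 to 6.77 CPM.

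A group of 4 of these lower genes lies together on chromosome 6. Braf, the MAP kinase pathway kinase, had 35.1, 69.1 and 69.8 CPM in YZ11, JM1233 and RM0014 against 76.5 to 244 CPM, a difference of -1.35 ± 0.38. Its neighbour Adck2, a mitochondrial kinase-like gene, had 5.42, 6.8 and 8.34 CPM against 11.2 to 28.3 CPM, a difference of -1.34 ± 0.34. Ubn2, a histone chaperone subunit, and Trim24, a bromodomain cofactor that promotes p53 turnover, differed by -1.51 ± 0.44 and -1.3 ± 0.41. Braf and Ubn2 were highest in YZ2 and JM1126, where Braf reached 189 and 244 CPM. Chromosome 6 holds 11 of the 67 genes with no overlap in the lower direction and 5.97% of the genes tested. In the bin at 30 to 40 Mb, with the lowest median of all bins (-0.93), the low tumors stood at -0.35, -0.52 and -0.27 and the high tumors from -0.93 to 0.72, so the bin as a whole overlapped. Other bins of chromosome 6 between 40 and 90 Mb had medians from -0.66 at 80 to 90 Mb to 0.20 at 60 to 70 Mb, with overlap as well.

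**Figure D4:**
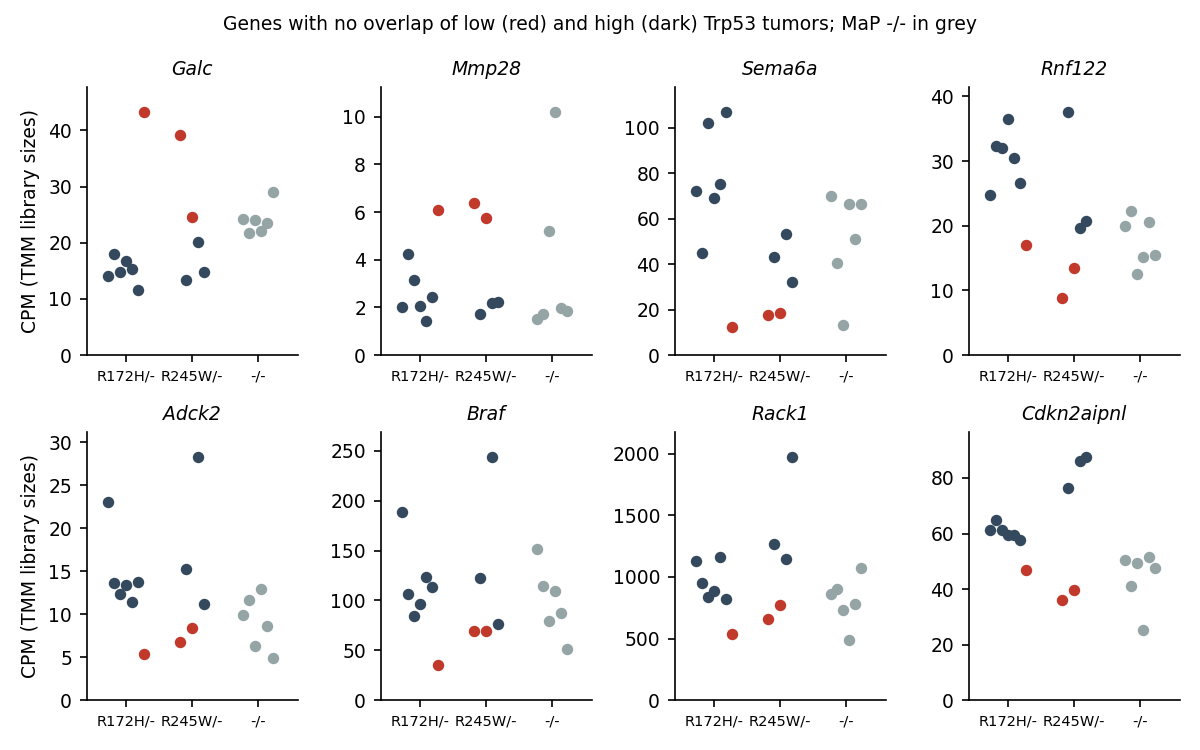
Points give the level of 8 genes in each tumor (CPM by TMM library sizes, linear axes from 0), with low-Trp53 tumors in red, high-Trp53 tumors in dark blue and MaP -/- tumors in grey, by genotype. The 8 genes were picked for having no overlap, so in each panel the 3 red points lie outside the range of the 9 dark points. For Galc and Cdkn2aipnl the grey points lie on the side of the red ones.

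No target or regulator of p53 passed the test. Of 36 genes that wild-type p53 activates, 17 were above 0 and 19 below, with a median of -0.03, the same as all genes, and 0 reached an unadjusted p below 0.05. Cdkn1a had 14.9, 10.2 and 5.57 CPM in YZ11, JM1233 and RM0014 against 5.42 to 40.3 CPM, and Mdm2 had 82.4, 53.7 and 68.2 CPM against 54.5 to 108 CPM. Ccng1, cyclin G1, which lies within the lower stretch of chromosome 11, had 53.4, 111 and 59.4 CPM against 57.6 to 142 CPM. The smallest p among the targets was that of the death receptor gene Tnfrsf10b, at 0.88 ± 0.42 (unadjusted p = 0.056, edgeR), followed by Kank3 at 0.69 ± 0.35 and Trp53inp1 at -0.38 ± 0.23. For every one of these genes the classes overlapped.

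Of 24 members of the p53 family and its regulators, 14 were above 0 and 10 below, with a median of 0.06. The kinase gene Hipk2, which lies on chromosome 6, had 40.5, 43.3 and 27.1 CPM against 24.8 to 126 CPM, and Cop1, a ubiquitin ligase for p53, had 100, 120 and 108 CPM against 65.4 to 101 CPM. Among 18 factors known to bind mutant p53, 12 were below 0, with a median of -0.08. Yap1, the Hippo pathway coactivator, had 106, 86.3 and 137 CPM against 116 to 208 CPM, a difference of -0.57 ± 0.23 (unadjusted p = 0.0288, edgeR). The classes overlapped for Hipk2, Cop1 and Yap1.

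Growth lists gave small shifts. Of 30 genes of mitosis and replication, 22 were above 0, with a median of 0.19, and the median was 0.19 within MaP R245W/- and 0.20 within MaP R172H/-. Tyms, thymidylate synthase, was the only member with no overlap, at 43.7, 55.9 and 45.8 CPM against 20.3 to 37.1 CPM. The helicase subunit gene Mcm3 had 178, 119 and 147 CPM against 64.0 to 132 CPM. Of 20 regulators of the G1 to S step, 10 were above 0 and 10 below. Among 18 receptor kinases and growth factors, 14 were below 0, with a median of -0.44. Fgfr1 had 83.5, 274 and 232 CPM against 215 to 606 CPM.

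Ribosomal protein genes leaned low almost as a whole. Of 83 tested, 77 were below 0, with a median of -0.33 on the log2 scale, against -0.03 for all genes. The median was -0.42 within MaP R245W/- alone and -0.23 within MaP R172H/- alone, where all genes had -0.12. Only 2 of the 83 lie in the stretch of chromosome 11 at 20 to 70 Mb, and without them 75 of 81 were below 0, with a median of -0.33. Those 2 were the lowest by p: Rpl26 had 187, 248 and 337 CPM in YZ11, JM1233 and RM0014 against 273 to 399 CPM in high MaP R172H/- and 419 to 801 CPM in high MaP R245W/- tumors. Rps27a had 76.2, 181 and 267 CPM against 108 to 193 CPM and 305 to 597 CPM. Within each genotype the low tumors were below the high ones for both genes, and across genotypes they overlapped. The summed level of all 84 ribosomal protein genes overlapped, with 18863, 24673 and 28386 CPM in the low tumors, 16474 to 25725 CPM in high MaP R172H/- and 28524 to 47770 CPM in high MaP R245W/- tumors.

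Metabolic lists were mixed. Of 20 genes of glycolysis and hypoxia, 18 were below 0, with a median of -0.38, but the median was -0.88 within MaP R245W/- and 0.02 within MaP R172H/-. Pfkp, platelet-type phosphofructokinase, had 131, 108 and 151 CPM against 110 to 316 CPM. Of 25 genes of cholesterol synthesis, 20 were below 0, with a median of -0.25. Of 44 nuclear subunits of the respiratory chain, 25 were below 0, with a median of -0.06, close to the median of all genes. The first of these lists thus rested on MaP R245W/- tumors.

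**Figure D5:**
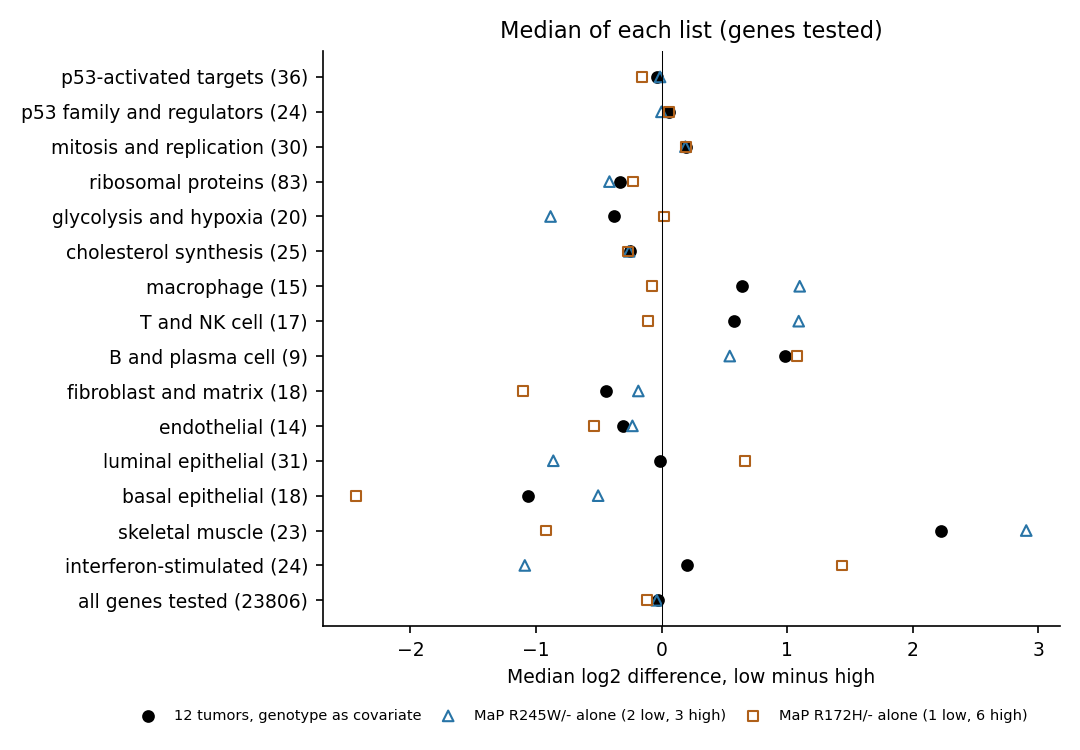
Points give the median log2 difference, low minus high, over the tested genes of each list: in the fit of all 12 tumors with genotype as covariate (black), within MaP R245W/- (triangles) and within MaP R172H/- (squares). The p53 targets sit at -0.03, ribosomal proteins are below 0 in all 3 fits, and the skeletal muscle, luminal and interferon lists point in opposite directions in the 2 genotypes.

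Cell type markers showed that the 3 low tumors were unlike each other, and a lower share of a cell type cannot be told apart from less RNA per cell in bulk tissue. The luminal epithelial list of 31 genes summed to 15827 CPM in YZ11, 727 CPM in JM1233 and 8346 CPM in RM0014, against 980 to 10506 CPM in the high tumors. YZ11 had the highest and JM1233 the lowest sum of the 12 missense tumors. Cldn4, a tight junction claudin, followed this order with 1411, 3.27 and 169 CPM against 1.86 to 427 CPM. The basal epithelial list was below 0 in 14 of 18 genes, with a median of -1.06. That median was -2.43 within MaP R172H/-, where YZ11 is the only low tumor, and -0.505 within MaP R245W/-. The basal sums overlapped, with 1462, 732 and 1402 CPM in YZ11, JM1233 and RM0014 against 530 to 10918 CPM in the high tumors. Krt5 had 3.74, 0.0 and 0.114 CPM against 0.0382 to 444 CPM, a range set by a few high MaP R172H/- tumors.

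JM1233 held muscle and macrophage RNA beyond the other tumors. The skeletal muscle list summed to 7854 CPM in JM1233, 63.6 CPM in YZ11 and 38.1 CPM in RM0014, against 70.7 to 678 CPM in the high tumors. All 23 tested muscle genes were above 0, with a median of 2.22, yet the sum was lower in YZ11 and RM0014 than in every high tumor. By the mean of log2 levels over the list, YZ11, at 1.12, was above the lowest high MaP R172H/- tumor, at 0.96. Myh7, slow myosin heavy chain, had 0.0, 203 and 0.114 CPM in YZ11, JM1233 and RM0014, and Mb, myoglobin, 6.45, 30.5 and 1.14 CPM. The macrophage list summed to 9980 CPM in JM1233, 2458 CPM in YZ11 and 3022 CPM in RM0014, against 1716 to 4792 CPM in the high tumors. Without JM1233 the count of called genes was still 0 in each direction. The part of these cells in the gene differences was not tested.

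Of 15 macrophage markers, 14 were above 0 (median 0.64), but the median was -0.08 within MaP R172H/-. Cd163, a scavenger receptor, had 90.3, 69.5 and 22 CPM against 5.88 to 41.3 CPM, and Adgre1, F4/80, had 52.9, 338 and 98.6 CPM against 36.5 to 114 CPM. Of 17 T and NK cell markers, 14 were above 0, but their median was -0.11 within MaP R172H/-, against 1.09 within MaP R245W/-. The cytotoxic granule gene Prf1, perforin, had 0.607, 8.9 and 5.34 CPM against 0.344 to 1.14 CPM. All 9 B and plasma cell markers tested were above 0, with a median of 0.98. Ms4a1, CD20, had 3.27, 0.825 and 0.314 CPM against 0.0845 to 0.573 CPM, and the list summed to 59.5, 18.5 and 9.26 CPM against 5.2 to 81.8 CPM. These are low levels, and no lymphocyte list separated the classes by its sum.

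Stromal lists leaned the other way. Of 18 fibroblast and matrix genes, 15 were below 0, with a median of -0.44. That median was -1.105 within MaP R172H/-, where YZ11 is the only low tumor, and -0.185 within MaP R245W/-. Of 14 endothelial genes 13 were below 0, with a median of -0.31 (-0.54 within MaP R172H/- and -0.23 within MaP R245W/-). The sums of the fibroblast list were 3982 CPM in YZ11, 22613 CPM in JM1233 and 10762 CPM in RM0014, against 5636 to 49375 CPM in the high tumors. YZ11 was below every other missense tumor, and JM1233 was above every high MaP R172H/- tumor. JM1233 and RM0014 were above the median of the high MaP R245W/- tumors, 6390 CPM, and below the highest of them, at 49375 CPM. Interferon-stimulated genes had a median of 0.20, with 1.44 within MaP R172H/- and -1.09 within MaP R245W/-. Ltf, the milk and neutrophil protein lactoferrin, was 8285 CPM in YZ11, 1.47 CPM in JM1233 and 542 CPM in RM0014, against 6.55 to 330 CPM in the high tumors. The lists that hold Ltf did not follow it. Of 10 neutrophil genes, 8 were below 0, with a median of -0.51. Of 12 milk and secretory genes, 6 were above 0 and 6 below, with a median of -0.05.

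YZ11 carried a block of its own on chromosome 12. Asxl2, a Polycomb-group cofactor, had 799 CPM in YZ11 against 91.8 to 112 CPM in the other MaP R172H/- tumors, 78.3 and 89.8 CPM in JM1233 and RM0014, and 85.1 to 127 CPM in the high MaP R245W/- tumors. The nearby vesicle traffic gene Rab10 had 737 CPM against 80.0 to 111 CPM, and the kinesin gene Kif3c 192 CPM against 27.6 to 41.3 CPM. The low minus high difference of these 3 genes was not the same in the 2 genotypes, with an interaction of -3.34 ± 0.34 for Asxl2 (FDR = 0.0233), -3.16 ± 0.36 for Rab10 and -3.47 ± 0.41 for Kif3c (FDR = 0.0324 for both, edgeR). Of 26521 genes tested for such a difference these 3 passed, and the term rests on 1 low MaP R172H/- tumor.

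The genes the study singled out for its missense tumors were chosen on these samples and are no independent evidence. Of 10, 3 were above 0 and 7 below, with a median of -0.60, and 0 reached an unadjusted p below 0.05. Nrtn, neurturin, differed by -0.56 ± 0.86 and the nuclear receptor gene Nr5a2 by -0.63 ± 0.85. Lime1 was at -0.77 ± 0.69, Add2 at -1.40 ± 0.84, Msi1 at -0.77 ± 1.57 and Fbxo2 at -0.11 ± 1.35. Prss35, Ankrd2 and Myh4 were at 1.56 ± 1.95, 1.97 ± 1.3 and 1.75 ± 1.37, each with its highest low tumor in JM1233. No gene of the 10 passed the test, and Lime1 had at most 17 counts in any missense tumor.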

How the data were processed

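RNA-seq was analysed from a single deposited table of whole-number counts for 57126 mouse genes in 18 mammary tumors. Per the labels, the authors used STAR 2.7.10b and RSEM 1.3.3 on GRCm39 after FastQC 0.11.9. The libraries were stranded, but the strand setting of the counting is not given in the sources used here. Totals ran from 23113578 to 37365062 counts in the 12 missense tumors, and depth limits genes of low level. Symbols and positions came from GENCODE M39, which matched 56620 identifiers. Low tumors were those with Trp53 below 20 CPM of the column total. Genes were tested with edgeR 4.0.16 in R 4.3.3 (quasi-likelihood test, TMM, filterByExpr, genotype and class as terms), with Benjamini-Hochberg adjustment over all genes tested except Trp53. Calls needed an FDR below 0.05 and an absolute log2 difference of at least 1. DESeq2 1.42.0 and other settings were alternatives, and the steps were tested on simulated data. There, edgeR found 53 of 100 better counted genes changed by 2 on the log2 scale and 88 of 100 changed by 4, with 8 false calls. A count of 0 called genes therefore does not show that no gene differed. Gene levels are CPM by TMM library sizes. The study lists each missense tumor under a mouse of its own, so p-values measure the spread between animals. Deviations by position are log2(CPM + 1) minus the median of the other high tumors of the genotype.

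Named genes were those with no overlap between classes and an absolute log2 difference of at least 1, by smallest p and up to 10 a direction, leaving out gene models; up to 3 of each list by p; genes the study singled out; and the 6 nearest neighbours of Trp53. Others were named after their values were seen. The tumors and gene lists were chosen with earlier results of these data known.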

Additional observations from a re-analysis of the deposited data

Results flagged for a closer look

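Tumors of 1 genotype were compared for Trp53, for 69 of the genes named and for the median of the neighbours of Trp53. Other named genes, such as Wrap53, Alox15, Pitx1, Alb and Glt1d1, were not compared in this way. A tumor was set apart where its gap to the nearest other tumor was a large share of the group's range (Dixon's limit at 95%). Gene levels were on the log2(CPM + 1) scale. Of 213 groups tested, 27 gave such a tumor. Chance gives about 1 in 20 groups, but most of these genes, and YZ11 by Trp53 itself, were chosen for how they differed between these tumors, so nothing is read from that count. YZ11 stood apart among MaP R172H/- tumors for Trp53 (11.2 CPM by TMM library sizes), which is how it was chosen, and for Galc (43.3 CPM), Tnfsf18 (2.38 CPM), Sema6a (12.3 CPM), Ms4a1 (3.27 CPM), Cdkn2aipnl (46.7 CPM), Asxl2 (799 CPM), Rab10 (737 CPM) and Kif3c (192 CPM). Other MaP R172H/- tumors stood apart for Adgre1 (YZ2, 36.5 CPM), Myh7 (YZ7, 0.38 CPM) and Atp1b2 (YZ7, 68.6 CPM).

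Among MaP R245W/- tumors, JM1233 stood apart for Lrrc2 (8.42 CPM), Ncr1 (4.06 CPM), Myh7 (203 CPM) and Cldn4 (3.27 CPM). The high tumors JM1133 and JM1126 stood apart for Ralgps2 (0.995 CPM) and Cacna1b (6.77 CPM), and for Krt5 (3.51 CPM). Among MaP -/- tumors, where JM663-T1 and JM663-T2 shared a mouse, as did JM833-T1 and JM833-T2, so that the 6 are not independent, JM779-T1 stood apart for Galc (29.1 CPM) and Dvl2 (40.3 CPM), JM833-T2 for Tnfsf18 (3.9 CPM) and Ms4a1 (91.9 CPM), JM663-T2 for Sema6a (13.2 CPM) and Yap1 (1430 CPM, to 3 digits), and JM833-T1 for Cdkn2aipnl (25.4 CPM) and Efnb3 (0.661 CPM).

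The class difference itself differed between genotypes, by the interaction term in edgeR, for Asxl2 (-3.34), Rab10 (-3.16) and Kif3c (-3.47), where YZ11 is the single low MaP R172H/- tumor.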

How the results depend on the processing

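The count of called genes was 0 in each direction in the 12-tumor edgeR fit and in most alternatives, also with no fold threshold or with a threshold of 2. It was 5 higher within MaP R172H/- tumors alone (Ephx4, Chst13, Rab10os, Rab10 and Asxl2, resting on YZ11), and 15 higher and 15 lower with DESeq2 over 43790 genes. Leaving out 1 tumor at a time gave 0 to 1 higher and 0 lower, the 1 call coming without MaP R245W/- replicate 2 (JM1564), for Ephx4. The median of genes within 1 Mb of Trp53 stayed below 0 in all 23 alternatives, which were applied to it after the data were seen, and ran from -0.56 to -0.43 with 1 tumor left out. In a fit on Trp53 as a continuous term it was -0.23 for each log2 unit by which Trp53 CPM was lower, a different unit. The median of chromosome 11 at 20 to 70 Mb was -0.22 in that fit, -0.53 within MaP R172H/- alone, and -0.52 to -0.32 with 1 tumor left out.

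Of 69 named genes, 50 kept their direction throughout. Within MaP R172H/- alone the difference turned to 0.27 for Cdkn1a, 0.094 for Mdm2, -0.066 for Adgre1, -0.56 for Prf1, -1.25 for Atp1b2, -1.39 for Shbg, 0.16 for Fbxo2, -4.26 for Prss35 and -1.51 for Ankrd2. Within MaP R245W/- alone it turned to -1.58 for Cldn4, -0.33 for Asxl2, -0.20 for Rab10, -0.97 for Kif3c, -0.27 for Dnah2, 0.19 for Sat2 and 0.30 for Msi1. Without the genotype covariate it turned to -1.05 for Atp1b2, -0.18 for Shbg, -0.0 for Dnah2 and 0.053 for Nr5a2, and with a skeletal muscle score to -0.74 for Myh7 and -0.33 for Ankrd2. With 1 tumor left out, ranges that crossed 0 were -1.29 to 0.032 for Cdkn1a, -3.61 to 6.30 for Myh7, -1.57 to 2.52 for Cldn4, -0.33 to 2.01 for Asxl2, -0.199 to 1.999 for Rab10, -0.97 to 1.51 for Kif3c, -0.27 to 0.32 for Dnah2, -1.23 to 0.18 for Sat2, -0.064 to 2.25 for Shbg, -0.29 to 1.79 for Fbxo2, -2.71 to 0.30 for Msi1, -0.012 to 2.71 for Prss35, -1.67 to 0.23 for Add2 and -1.70 to 3.13 for Ankrd2. Except where fewer tumors entered by construction, the cause was not tested. No paired analysis was possible because replicate numbers were given in accession order and the columns carry none that tumors share.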

Other observations

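The 30 genes DESeq2 called held 7 of the 17 genes named above for no overlap (2 higher and 5 lower), and several genes carried by 1 or 2 of the low tumors, named here after their values were seen. Igf2bp1, an oncofetal RNA-binding protein, had 43.1 CPM in YZ11 and 97.2 CPM in RM0014, but 0.118 CPM in JM1233, against 0.2 to 5.44 CPM in the high tumors. Pitx1, a homeobox gene, had 30.1 CPM in YZ11 and 0.265 and 0.543 CPM in JM1233 and RM0014. Gzmf, a granzyme, had 28.8 CPM in JM1233 and 7.54 CPM in RM0014 and was listed at 0.0 in YZ11. Alb and Apob, plasma protein genes of liver, had 238 and 39.4 CPM in JM1233 and under 1 CPM in the other low tumors. Glt1d1, a glycosyltransferase gene, had 0.187, 0.0295 and 0.4 CPM in YZ11, JM1233 and RM0014, against 3.83 to 13.0 CPM in 8 high tumors and 0.218 CPM in the high tumor JM1564. Ass1, argininosuccinate synthase, had 11.8 and 11.3 CPM in YZ11 and JM1233 and 38.4 CPM in RM0014. The high tumors held 26.8 to 51.1 CPM of Ass1 in MaP R172H/- and 65.6 to 88.2 CPM in MaP R245W/-. Within each genotype the low tumors were thus below the high ones for Ass1, and across genotypes they overlapped. Glt1d1 was at 0.4 CPM or less in all 3 low tumors, but RM0014 was above the high tumor JM1564 of its genotype.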
